A study of Mus musculus with 2 samples.

Results

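The glutathione S-transferases described here are 10 genes measured in KSL cells of Nrf2 knockout and wild-type mice. They are the mu-class Gstm1 and Gstm5, the theta-class Gstt1 and Gstt2, the omega-class Gsto1, the kappa-class Gstk1, the zeta-class Gstz1, and the membrane-bound Mgst1, Mgst2 and Mgst3. They were chosen by symbol, as array probe sets annotated with exactly 1 of these names, among 19938 genes that the array named in that way. Each of the 10 genes had 1 such probe set, so no averaging over probe sets was needed, and all 10 were measured. All 10 symbols matched their Entrez IDs in the GRCm38.p6 annotation.

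KSL cells are marrow cells positive for c-Kit and Sca-1 and negative for mature lineage markers, a gate rich in blood stem cells and early progenitors. The knockout group was Nrf2-/- mice, which lack the transcription factor NRF2 encoded by Nfe2l2, and the wild-type group was Nrf2+/+ mice. Both were healthy C57BL/6J mice aged 8 to 10 weeks, kept in a facility described as germ free. Marrow of 5 mice per genotype was pooled before KSL cells were sorted, and 1 amplified RNA sample per genotype was read on 1 Affymetrix Mouse Gene ST 1.0 array. The labels do not say how the allele was made, which exons it removes, or that it is limited to blood cells. Fewer cells of a type and less RNA per cell cannot be told apart in such pooled RNA.

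Glutathione S-transferases join the thiol of glutathione to electrophilic molecules, such as drug metabolites and the aldehydes left by lipid peroxidation, which makes them soluble and ready for export. The cytosolic classes share a thioredoxin-like fold, the kappa class resembles bacterial disulfide oxidoreductases and resides in mitochondria and peroxisomes, and the MGST proteins are small integral membrane enzymes of the MAPEG family. Several transferase genes are known targets of NRF2, which binds the antioxidant response element in their control regions together with a small MAF protein. The comparison of the 2 arrays addresses how the transferases stood in stem and progenitor cells without NRF2.

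With 1 array per genotype there were no replicates, no test could be run and no p-value is given. Every value is a log2 intensity as deposited, and every difference is log2 knockout minus log2 wild type. Probe sets of the same gene offer the sole internal measure of error. It was taken over 515 genes with exactly 2 probe sets and a mean level at or above the median over genes. For these the SD of a single difference was 0.31 on the log2 scale. A robust estimate, which gives little weight to discordant pairs, was 0.17. Over all 777 genes with exactly 2 probe sets, weak signals included, the same estimates were 0.31 and 0.18. The probe-set SD below is the 0.31, and neither estimate includes how much mice, sorts or amplification runs vary. Levels of different genes are not set against each other, because probe sets differ in how brightly they bind.

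The array values do not check the knockout label. Nfe2l2 read 9.07 in the knockout array and 9.16 in the wild-type array (difference −0.09). The labels do not give the deleted part, and where the probes lie relative to it was not checked. Directions below therefore rest on the labels of the arrays. Kit, the receptor that defines the KSL gate, read 11.21 in the knockout array and 10.93 in the wild-type array. The 12 KSL and stem cell markers measured had a mean level of 9.27 in the knockout array and 9.21 in the wild-type array. Ly6a, which encodes Sca-1, was not analysed here.

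Neutrophil markers, which belong to cells outside the gate, were lower by a median of −1.54, more than any of the 10 transferases. All 14 neutrophil markers were lower in the knockout array, against 46.9% of all genes, and 13 were at least 1.5-fold lower, against 3.15%. Their mean log2 level was 7.80 in the knockout array and 9.28 in the wild-type array. The calprotectin subunit S100a8 read 10.34 in the knockout array and 11.79 in the wild-type array, and its partner S100a9 read 11.30 in the knockout array and 12.25 in the wild-type array. Neutrophil marker levels ranged between 5.36 and 11.30 in the knockout array and between 6.69 and 12.25 in the wild-type array. Of 11 monocyte and macrophage markers, 10 were lower, 7 of these at least 1.5-fold, against 3.15% of all genes. Cd68 was at least 1.5-fold higher, against 1.74% of all genes, at 9.31 in the knockout array and 8.68 in the wild-type array. The list had mean levels of 7.17 in the knockout array and 7.83 in the wild-type array and ranges of 5.26 to 9.47 in the knockout array and 5.92 to 10.04 in the wild-type array. Csf1r, the receptor for macrophage colony-stimulating factor, read 7.02 in the knockout array and 7.68 in the wild-type array. Which cells in the pools carried these transcripts, and their part in the transferase values below, were not tested.

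The transferases were mostly lower in the knockout array, by small amounts. Of the 10 genes, 7 were lower, 2 were higher and 1 was equal, against 46.9% of all 19938 genes below 0 and 50.7% above it. Their median difference was −0.29, whereas the median over all genes was 0.01. Gstk1 and Gstm5 were at least 1.5-fold lower, which is 20.0% of the 10, against 3.15% of all genes. None was at least 1.5-fold higher, against 1.74% of all genes, and none reached 2-fold in either direction, which 0.602% of all genes did as lower and 0.311% as higher. A level filter at the median over genes, a mean log2 intensity of 6.57, was passed by 7 of the 10 and missed by Gstt1, Gstz1 and Mgst3, which are kept in all counts.

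**Figure D1:**
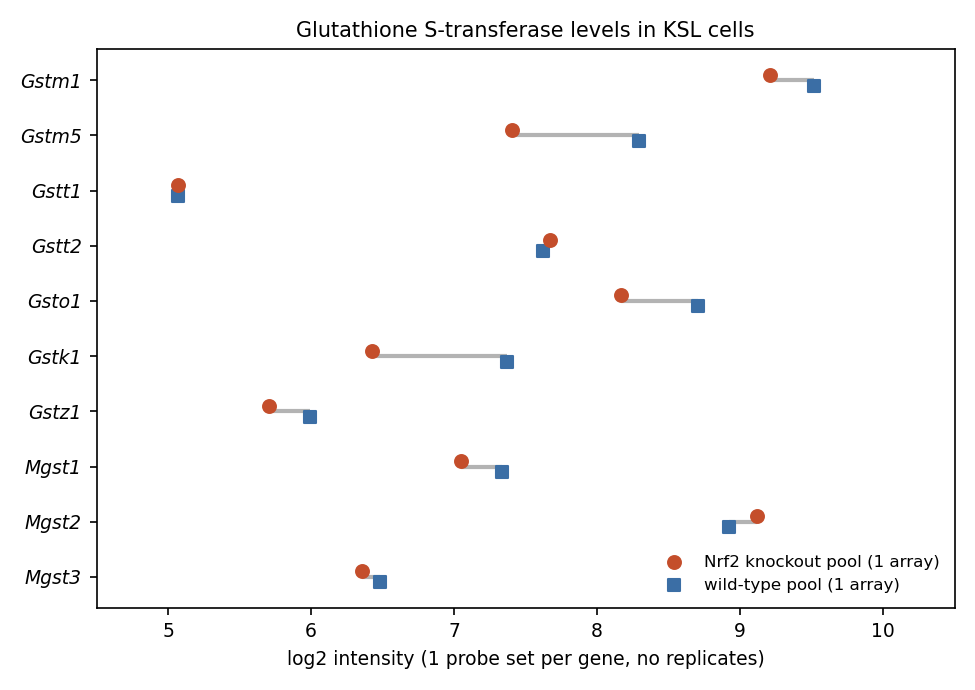
Log2 intensity (horizontal axis) of each of the 10 transferase genes (vertical axis) in the Nrf2 knockout pool (circles) and the wild-type pool (squares), 1 array each, with a grey line joining both values of a gene. The wide gaps are Gstm5 and Gstk1, with the knockout circle on the left; Mgst2 has its knockout circle on the right, and both marks of Gstt1 lie at 5.07.

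Both mu-class genes were lower in the knockout array, and they differed in size. Gstm5, a mu-class enzyme best known from testis and brain, read 7.40 in the knockout array and 8.29 in the wild-type array. The difference of −0.89 is 1.85-fold, or a knockout level of 54.0% of wild type, and is 2.82 times the probe-set SD. Only 0.978% of all genes had a difference this low or lower. Gstm1, a broadly expressed mu-class enzyme that conjugates aromatic electrophiles and binds the stress kinase ASK1, read 9.21 in the knockout array and 9.52 in the wild-type array. Its difference of −0.31 was about the size of the probe-set SD and outside the robust 0.17, and 11.2% of all genes were at or below it.

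The mu-class genes lie side by side on mouse chromosome 3, and all 7 of them were lower in the knockout array, against 46.9% of all genes. In annotation order, Gstm5 at one end of the row and Gstm7 beside it had the low values, with a pseudogene between them. Gstm7 read 6.17 in the knockout array and 7.18 in the wild-type array (difference −1.01) or 2.01-fold, and its knockout value lay below the level filter. The other 5 were closer to level, with Gstm4 at −0.42, Gstm6 at −0.31, Gstm1 at −0.31, Gstm3 at −0.28 and Gstm2 at −0.11; those outside the members were looked up after the members' values were seen. Mu-class genes are close paralogs, so a probe set may also bind a neighbour's transcript, and their values are uncertain as measures of single genes and are not independent. The pair of probe sets for Gstm3 disagreed, at −0.51 and −0.05.

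The theta-class genes differed little or not at all. Gstt1, which acts on small halogenated compounds such as dichloromethane, read 5.07 in the knockout array and 5.07 in the wild-type array, identical as deposited. Identical values occurred in 734 of 28853 probe sets, or 2.54%. Gstt2, a theta-class enzyme known for conjugating aryl-methyl sulfate esters, read 7.67 in the knockout array and 7.62 in the wild-type array (difference 0.05). The neighbours in the theta row on chromosome 10, Gstt3 and Gstt4, differed by −0.26 and −0.06. All 4 theta-class differences were within the probe-set SD, and all but that of Gstt3 within the robust 0.17. The Gstt3 difference was of the size seen for the mu-class Gstm3 and Gstm1. Gstt1 and Gstt4 lay under the level filter, as did Gstm6 and Gstm2 of the mu class.

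**Figure D2:**
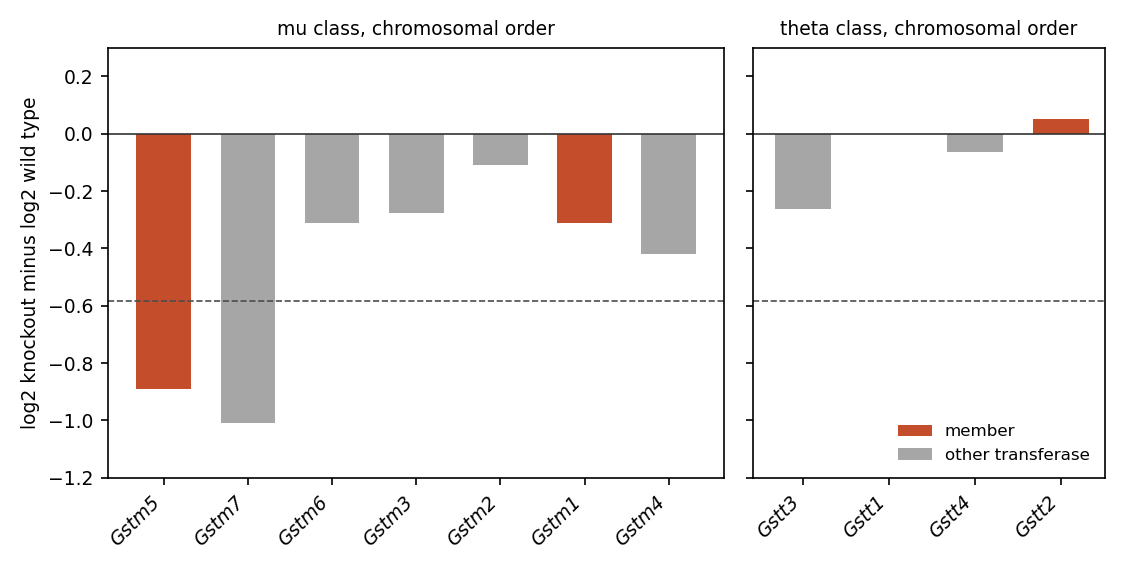
Difference, log2 knockout minus log2 wild type (vertical axis), for the mu-class genes (left panel) and theta-class genes (right panel), drawn in their order along the chromosome without distances, with members in red, other transferases in grey and a dashed line at 1.5-fold lower. All 7 mu-class bars point down, with Gstm5 at −0.89 and Gstm7 at −1.01 past the dashed line, and the theta-class bars lie between −0.26 and 0.05.

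The single-member classes were all lower in the knockout array. Gstk1, the kappa-class transferase of mitochondria and peroxisomes, had the lowest difference of the 10, with 6.43 in the knockout array and 7.37 in the wild-type array. This difference of −0.94 is 1.92-fold and 2.98 times the probe-set SD, and 0.797% of all genes were at or below it. Its knockout value lay under the filter level of 6.57, and the size of a difference is less sure for weak signals.

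Gsto1, an omega-class enzyme with a cysteine in its active site that removes glutathione from proteins and reduces dehydroascorbate and arsenic compounds, read 8.17 in the knockout array and 8.70 in the wild-type array. The difference of −0.54, or 1.45-fold, did not reach 1.5-fold but exceeded the probe-set SD, at 1.70 times its size, and 3.98% of all genes were at or below it. Gstz1, the zeta-class enzyme that isomerises maleylacetoacetate in tyrosine breakdown, read 5.70 in the knockout array and 5.99 in the wild-type array. Its difference of −0.29 was inside the probe-set SD but outside the robust 0.17, and both its values were under the filter level.

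The membrane-bound transferases spanned 0 and stayed inside the probe-set SD of 0.31, while Mgst1 and Mgst2 lay outside the robust 0.17. Mgst1, an enzyme of the endoplasmic reticulum and outer mitochondrial membrane that also reduces lipid hydroperoxides, read 7.05 in the knockout array and 7.33 in the wild-type array (difference −0.29). Mgst3, a relative with peroxidase activity towards lipid hydroperoxides, read 6.36 in the knockout array and 6.48 in the wild-type array (difference −0.13). Mgst2, which can also make leukotriene C4, was the highest of the 10, with 9.12 in the knockout array and 8.92 in the wild-type array. Its difference of 0.20 is 1.15-fold, and 81.4% of all genes were at or below it. Thus 3 of the 10 genes, Gstk1, Gstm5 and Gsto1, differed by more than the probe-set SD, and Gstk1 and Gstm5 by more than 2 times it. Against the robust 0.17, 7 of the 10 differed by more, and the same 3 genes by more than 2 times it. The differences of all genes had an SD of 0.29, close to the probe-set SD. The share of all genes past these cuts was not counted, so the counts do not set the transferases apart.

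**Figure D3:**
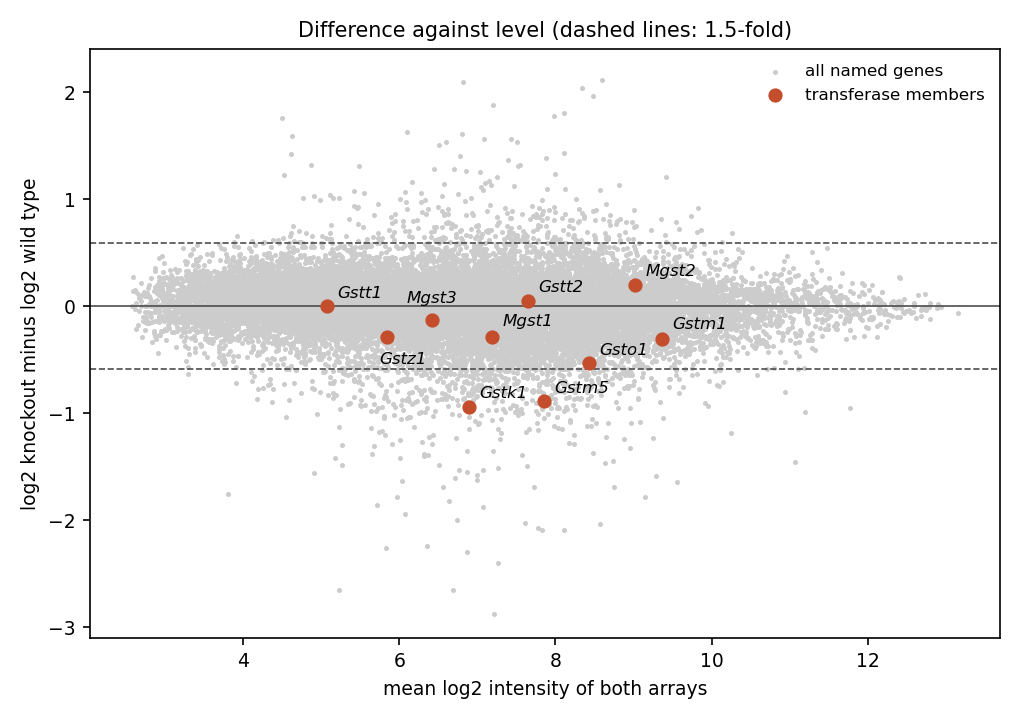
Difference, log2 knockout minus log2 wild type (vertical axis), against the mean log2 intensity of both arrays (horizontal axis) for all 19938 named genes (grey) and the 10 transferases (red, labelled), with dashed lines at 1.5-fold in each direction. Gstk1 and Gstm5 lie below the lower dashed line at −0.94 and −0.89, and the other 8 lie between the lines.

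The stretches before the annotated starts of Gstm5, Gstk1 and Mgst1 are shown because Gstm5 and Gstk1 had the low differences and because Gstm5 and Mgst1 hold the core letters of the antioxidant response element. Each is 250 bases, 5′ to 3′ on the gene's strand, from RefSeq promoter windows of GRCm38.p6, and ends at the base before the start. Capitals mark TGACNNNGC, searched on both strands, where N is any base. For Gstm5 the stretch is chr3:107895604-107895853 (+), for Gstk1 it is chr6:42245685-42245934 (+), and for the first of the Mgst1 starts it is chr6:138140277-138140526 (+).
Gstm5: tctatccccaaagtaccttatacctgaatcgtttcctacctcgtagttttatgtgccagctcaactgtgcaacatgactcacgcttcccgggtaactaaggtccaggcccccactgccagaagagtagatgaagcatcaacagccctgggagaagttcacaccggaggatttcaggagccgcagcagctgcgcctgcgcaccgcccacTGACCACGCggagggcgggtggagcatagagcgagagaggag
Gstk1: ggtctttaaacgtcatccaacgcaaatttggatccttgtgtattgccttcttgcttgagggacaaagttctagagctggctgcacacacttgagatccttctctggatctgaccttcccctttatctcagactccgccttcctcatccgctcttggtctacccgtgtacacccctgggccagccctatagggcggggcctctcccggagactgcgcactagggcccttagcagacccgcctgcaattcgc
Mgst1: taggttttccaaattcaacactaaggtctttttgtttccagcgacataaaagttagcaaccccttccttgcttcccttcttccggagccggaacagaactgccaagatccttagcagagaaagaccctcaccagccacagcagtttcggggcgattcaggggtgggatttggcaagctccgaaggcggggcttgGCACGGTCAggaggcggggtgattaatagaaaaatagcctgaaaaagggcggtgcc

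In Gstm5 the match TGACCACGC ran on the gene's strand from 42 to 34 bases before the start. In Mgst1 it read GCACGGTCA, the reverse complement of TGACCGTGC, and lay 56 to 48 bases before the start. Neither match overlapped the related AP-1 letters TGANTCA, which the Gstm5 stretch holds elsewhere, not capitalised, as tgactca. Gstk1, with the lowest difference, had no match in this window. RefSeq windows were at hand for 9 of the 10 genes, Gstt2 being the exception, and 2 of their 12 windows held the core, or 16.7%, against 10.2% of all 32851 windows. Of the windows of the other transferases, 2 of 23 held it, or 8.70%: 1 of Gstm7 and 1 of Gsta3, whose difference was −0.06. TGANTCA was in 2 of the 12 member windows, or 16.7%, and in 2 of the 23 others, or 8.70%, against 6.75% of all windows. A match describes such letters and does not show a bound site.

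The other transferases were lower to a similar degree. Of 18 listed, 14 had a probe set with their symbol alone, and 7 of these passed the level filter. In the knockout array 12 of the 14 were lower and 2 higher, against 46.9% of all genes lower and 50.7% higher. Their median difference was −0.29, against 0.01 over all genes. Gstm7 and Hpgds were at least 2-fold lower, against 0.602% of all genes. Hpgds, the sigma-class transferase that makes prostaglandin D2, read 5.92 in the knockout array and 6.95 in the wild-type array (difference −1.02); it lay under the level filter and was picked out after its values were seen. The pi-class Gstp1, also picked out afterwards, read 10.66 in the knockout array and 11.09 in the wild-type array (difference −0.43). The alpha-class Gsta4, which conjugates the lipid aldehyde 4-hydroxynonenal and was likewise picked out afterwards, read 8.00 in the knockout array and 8.45 in the wild-type array.

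Probe sets shared by close copies behaved in more than one way. A pair of probe sets shared by Gstp1 and Gstp2 differed by −0.25 and −0.26, less than the −0.43 of the probe set for Gstp1 alone. The 4 probe sets shared by Gsta1, Gsta2 and their copies were higher in the knockout array by between 0.12 and 0.23, at levels under 5 in both arrays. Joined with the 10 members, the family held 24 genes measured on their own, of which 19 were lower, 4 were higher and 1 was equal. Over all genes, 46.9% were lower. At least 1.5-fold lower were 4 of the 24, against 3.15% of all genes, and none was at least 1.5-fold higher, against 1.74%. The lists were drawn up with earlier results of these data known, so such counts describe the arrays and carry no independent weight.

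Genes that feed glutathione to the transferases were divided. Of 13 supply and recycling genes, 9 were lower and 4 higher, against 46.9% and 50.7% of all genes. The median of the 13 was −0.09. Among them 2 were at least 1.5-fold lower, against 3.15% of all genes. Gsr, which regenerates reduced glutathione, read 7.80 in the knockout array and 8.67 in the wild-type array, and Gclc, the catalytic subunit of glutamate-cysteine ligase in glutathione synthesis, read 7.84 in the knockout array and 8.65 in the wild-type array. Their differences of −0.87 and −0.80 were of the size seen for Gstm5 and Gstk1. Slc3a2, the heavy chain that partners amino acid transporters, was near level at −0.06. The cystine transporter Slc7a11, singled out after its values were seen, stood at 5.90 in the knockout array and 5.28 in the wild-type array, both under the filter level. Slc7a11 was the 1 gene of this list at least 1.5-fold higher, against 1.74% of all genes.

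Steps after conjugation were close to level as a group. Of 17 measured genes for export of conjugates and their conversion to mercapturates, 9 were lower and 8 higher. Over all genes, 46.9% were lower and 50.7% higher. The 17 had a median of −0.03 and none past 1.5-fold, against 3.15% of all genes lower and 1.74% higher. The export pump Abcc4 read 7.47 in the knockout array and 7.80 in the wild-type array, and the aminopeptidase Lap3 read 8.35 in the knockout array and 7.82 in the wild-type array. The glutathione peroxidases had 4 lower, 3 higher and 1 equal of 8, with a median of −0.05. Gpx1 and Gpx4, which reduce hydrogen peroxide and phospholipid hydroperoxides, differed by −0.10 and −0.21.

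Of 18 other phase 2 enzymes measured, 12 were lower, 5 higher and 1 equal, against 46.9% of all genes lower and 50.7% higher. The median of the 18 was −0.31. At least 1.5-fold lower were 4, against 3.15% of all genes, and of these Ugdh alone passed the level filter. Ugdh, which makes UDP-glucuronic acid for glucuronidation, read 8.56 in the knockout array and 9.31 in the wild-type array (difference −0.75). The acetyltransferase Nat2 was higher by 0.37. Of 13 classical NRF2 targets, which overlap the lists above, 9 were lower and 4 higher, against 46.9% and 50.7% of all genes. The median of these targets was −0.23. At least 1.5-fold lower were 4, against 3.15% of all genes, and 1, Slc7a11, was at least 1.5-fold higher, against 1.74%. Tkt, a transketolase of the pentose phosphate pathway, was level at 0.01.

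The pathways in which single members act were mixed. Among 14 genes listed as membrane and fold relatives of the transferases, 9 were lower and 5 higher, against 46.9% and 50.7% of all genes. The median of the 14 was −0.19. Gdap2, listed for its name and not known to have the transferase fold, read 6.94 in the knockout array and 7.89 in the wild-type array (difference −0.95). The tRNA synthetase scaffold protein Eef1e1 read 9.25 in the knockout array and 9.85 in the wild-type array (difference −0.60).

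For the leukotriene pathway, in which Mgst2 can act, 9 of 12 genes were lower, against 46.9% of all genes. The 12 had a median of −0.05 and none past 1.5-fold, against 3.15% of all genes lower and 1.74% higher. Alox5ap, a MAPEG protein that presents arachidonic acid to 5-lipoxygenase, differed by −0.55, and Ltc4s, the dedicated leukotriene C4 synthase, was higher by 0.27, the same direction as Mgst2. For phenylalanine and tyrosine breakdown, in which Gstz1 acts, 5 of 8 listed genes were lower, 2 higher and 1 equal. The median of the 8 was −0.10, and 46.9% of all genes were lower. Fahd1 and Fahd2a, both among the lower, were listed for their names and are not known steps of this pathway. Qdpr, which recycles tetrahydrobiopterin, differed by −0.47 and Fahd1 by −0.07.

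**Figure D4:**
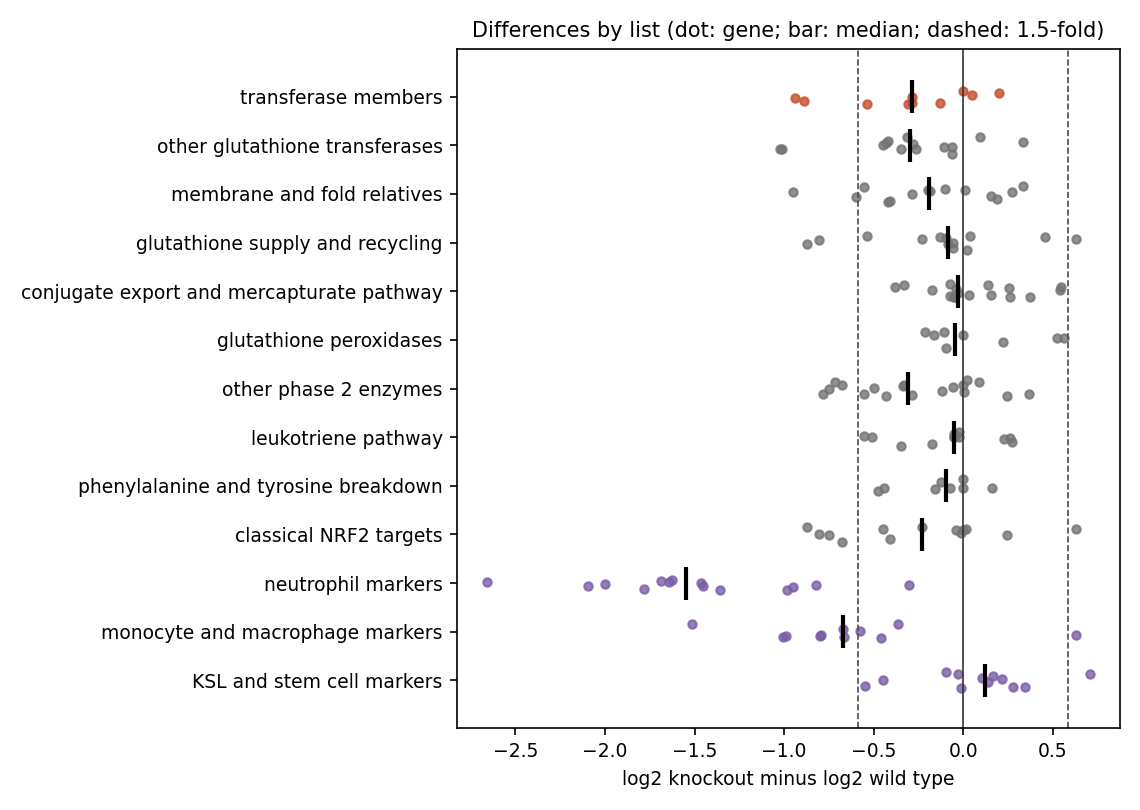
Difference, log2 knockout minus log2 wild type (horizontal axis), of single genes (dots) and the median (bar) for the 10 transferases (red), 9 related gene lists (grey) and markers of 3 cell types (purple), with dashed lines at 1.5-fold in each direction. The transferases have a median of −0.29, near those of the other transferases at −0.29 and other phase 2 enzymes at −0.31, while the neutrophil markers have a median of −1.54 and the KSL and stem cell markers one of 0.12.

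By their medians, markers of the remaining cell types stood nearer to level, although single markers did not. Medians were 0.04 for erythroid, 0.11 for B lineage, 0.06 for T and NK, −0.15 for mast cell and basophil, 0.10 for megakaryocyte and platelet, and 0.03 for stromal and endothelial markers. Higher were 5 of 7 erythroid, 5 of 9 B lineage, 5 of 10 T and NK, 5 of 6 platelet and 4 of 8 stromal markers. Over all genes, 50.7% were higher. In the mast cell and basophil list 7 of 9 were lower, against 46.9% of all genes. Each list but the stromal had 1 marker at least 1.5-fold lower, against 3.15% of all genes. At least 1.5-fold higher were 1 B lineage marker and 2 platelet markers, against 1.74% of all genes. As the defining markers set for these lists, Cd79a of B cells read 4.88 in the knockout array and 5.44 in the wild-type array, Cd3e of T cells read 6.70 in the knockout array and 6.82 in the wild-type array, and the mast cell protease Cpa3 read 6.98 in the knockout array and 7.13 in the wild-type array. Platelet factor Pf4 read 9.30 in the knockout array and 8.51 in the wild-type array, whereas the platelet glycoprotein Gp5 read 7.18 in the knockout array and 8.08 in the wild-type array. The globin gene Hba-a1 was not analysed here.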

How the data were processed

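Gene expression was measured in 2 pools of sorted KSL cells, 1 per genotype, on Affymetrix Mouse Gene ST 1.0 arrays. Per the labels' protocols, a Qiagen RNeasy micro kit gave the RNA and NuGEN Ovation kits amplified and labelled it, a step that can distort single genes. Partek is the tool in the submitters' processing notes. How probes were corrected, normalized and summarised is not given in the sources used here. As deposited, values are log2 intensities; the base was taken from their range, up to 13.79. Sorted values of both arrays differed by at most 0.0866, so a shift of all genes may not be visible. The number of arrays limits the precision.

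Of 28853 probe sets, 21789 had 1 gene symbol in the platform annotation, 1621 several and 5443 none. Those with 1 symbol were averaged per gene, giving 19938 genes, with no further normalization. Members of a list were counted by sign and at 1.5-fold, beside the same count over all genes; no test was run. The rule for names took all 10 members, Nfe2l2, defining markers, and, in each related list, genes past the level filter that passed 1.5-fold or had the highest or lowest difference. Genes and lists were chosen with earlier results of these data known. Alternatives covered scaling, the probe set used, level filters and fold sizes. Counting was tried on simulated data. Planted changes there were larger than any member's and the noise was smaller than the probe-set SD, so this checks the counting alone. Python 3.11.15, pandas 2.3.3, numpy 2.4.6 and statsmodels 0.14.6 (loess, span 0.3) were used.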

Additional observations from a re-analysis of the deposited data

How the results depend on the processing

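Under median centring, quantile normalization and loess, the 9 nonzero member differences kept their sign. The highest probe set and both level filters could not change a member's value. Each member had 1 probe set, and a filter only removes genes. Gstt1, at 0 as deposited, ranged between −0.04 and 0.02, which makes 8 of 10 lower under quantile normalization and loess. Gstk1 and Gstm5 ranged from −0.94 to −0.92 and from −0.89 to −0.85, and the median over all 10 from −0.29 to −0.27; it was −0.31 over the 7 and over the 3 members that passed the level filters. At the 75th percentile of level, with 3 members left, 2 were lower and 0 were at least 1.5-fold lower; the same count was 0 of 10 at 2-fold. The share of all genes at least 1.5-fold lower was 2.86% with median centring and 4.30% for genes reaching the median level, and the share higher was 2.34% there; at 2-fold the shares were 0.602% lower and 0.311% higher, and counting from 25% above the smaller value 10.6% and 8.13%. At the 75th percentile, with fewer genes left, list medians moved too. Conjugate export, with Abcc1 and Lap3 alone left, moved to 0.25 against −0.03 without a filter. Other phase 2 enzymes, with Ugdh and Akr1a1 alone left, moved to −0.59 against −0.31. Peroxidases, with Gpx1 and Gpx4 alone left, moved to −0.16 against −0.05. Other transferases, with Gsta4 and Gstp1 alone left, moved to −0.44 against −0.29. Membrane and fold relatives moved to −0.42 against −0.19, and supply and recycling to −0.23 against −0.09. Of the scalings, median centring moved the median of all genes most, by 0.02. No paired analysis was possible because each genotype had 1 array. With 1 array per genotype, no value has a replicate check, and weak signal limits Gstt1, Gstz1 and Mgst3.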
